A study of Homo sapiens with 24 samples.

Results

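A375 melanoma cells carrying a doxycycline (Dox)-inducible short hairpin RNA against MCM7 (shMCM7 cells) were compared with parental A375 cells when both had been given Dox. The comparison used 6 of the 24 RNA sequencing libraries of the series, 3 of each kind. A375 is a cell line from a human melanoma. All 6 cultures were synchronized with a double thymidine block, which holds cells at the border of G1 and S phase, and all 6 received 1 μg/ml Dox during 72 hours. Since both groups had Dox, a direct effect of the drug on transcription cancels out of the difference. The shMCM7 cells were a lentivirally transduced, puromycin-selected cell population and the parental cells were not transduced. Transduction, selection and the hairpin construct therefore cannot be told apart from the loss of MCM7 in this comparison. For that reason the 6 A375 libraries made without Dox (noDox), 3 of shMCM7 and 3 of parental cells, were fitted separately, and the difference between both contrasts was tested. That difference takes away only what already differs without Dox. Other effects of the induced hairpin cannot be told apart from the loss of MCM7 there either, as the series holds no library with a scrambled hairpin.

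MCM7 is a subunit of the MCM2-7 helicase, the ring that is loaded onto replication origins in G1 phase by ORC, CDC6 and CDT1 and that unwinds DNA in S phase. Cells load far more rings than they use, and spare rings serve as reserve origins when forks stall. In melanoma and many other tumours, genes of the pre-replication complex are highly expressed, in keeping with frequent cell division.

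The hairpin was designed against a 21-base stretch of the MCM7 messenger RNA. The hairpin target is shown with its flanks because it fixes which gene was aimed at, with the targeted bases in capitals. The guide strand that pairs with it is shown with its seed, bases 2 to 8, in capitals, assuming that the guide is fully complementary to the target.
MCM7 target site: attgCAGAGGAGGATTTCTACGAAAagctg
guide strand: tTTCGTAGaaatcctcctctg
In GENCODE 29 the full target was found in transcripts of 1 gene, MCM7, and in 5 of its transcripts. In the transcript ENST00000303887.9, which has 15 exons, the site lies within the coding sequence and crosses an exon junction. On GRCh38, 3 of its bases are in exon 8 at chr7:100097834-100097836 and 18 in exon 9 at chr7:100097728-100097745, on the minus strand.

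MCM7 (ENSG00000166508, chr7:100092728-100101940) was at 76.8, 76.4 and 77.2 CPM (TMM-scaled counts, expressed relative to the scaled total of the library), in the 3 induced shMCM7 libraries. Its level was 370, 355 and 357 CPM in the 3 parental libraries with Dox. The induced libraries lay close together and far below all parental ones. MCM7 was down-regulated 4.70-fold (log2 fold change -2.23 ± 0.05 SE, adjusted p = 5.3e-08, edgeR's quasi-likelihood test, adjusted by Benjamini-Hochberg), and by p-value it ranked 1 among the 16086 genes tested. Among the shMCM7 libraries without Dox, 2 were near the parental level, at 353 (replicate 2) and 359 CPM (replicate 3), and replicate 1 was between the induced and the parental levels with 131 CPM. The genes next to MCM7 were not called: AP4M1, whose 5′ end overlaps that of MCM7 on the other strand, had a log2 fold change of 0.04 ± 0.06, TAF6 of 0.03 ± 0.06, COPS6 of -0.06 ± 0.05, and ZNF3 of -0.09 ± 0.07 (SE).

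**Figure D1:**
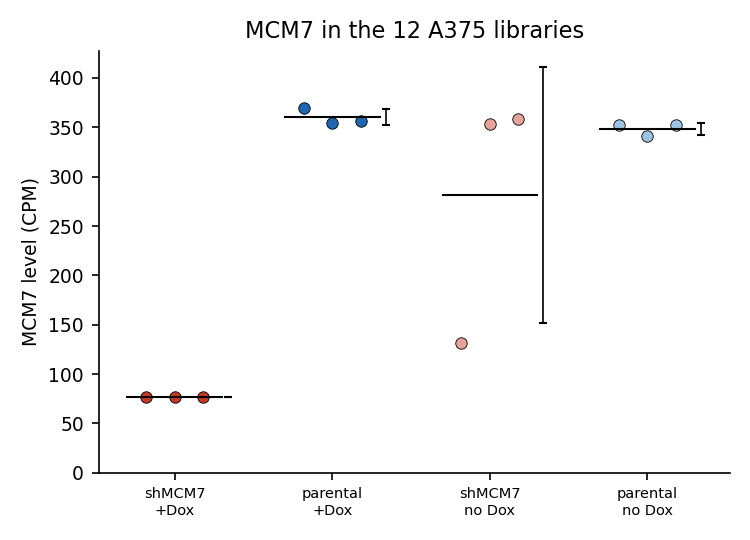
MCM7 level (CPM) in each of the 12 A375 libraries, by group. Points are libraries, the horizontal bar is the mean and the whisker the SD of 3 libraries. The induced shMCM7 libraries sit at 76.4 to 77.2 CPM, the parental ones with Dox at 355 to 370 CPM, and 1 of the 3 libraries of uninduced shMCM7 cells at 131 CPM.

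The 6 libraries were deep, with 146656792 to 283721575 counts, so that 3 counts corresponded to 0.0106 to 0.0205 CPM. Genes of the mitochondrial genome took 2.65% to 3.39% of the counts. The first principal component of the 6 libraries held 73.1% of the variance. Of 10 melanocyte and melanoma markers, 6 exceeded 1 CPM in all libraries, among them SOX10 and the surface proteins MCAM and CSPG4, and the summed level of the list was 1587 to 1768 CPM in induced shMCM7 and 1571 to 1784 CPM in parental cells. The pigment cell markers MLANA and TYR had at most 2 counts in any library, and PMEL stayed below 5 CPM. Of the lists for other cell types, the fibroblast markers summed to 16.3 to 17.8 CPM in induced shMCM7 and 19.8 to 40.6 CPM in parental cells. The highest of these values came from parental Dox replicate 3, where COL3A1 reached 8.89 CPM against 0.167 and 0.378 CPM in the other parental libraries with Dox. The endothelial list summed to 22.2 to 32.0 and 14.2 to 22.1 CPM, the leukocyte list to 88.1 to 95.7 and 67.3 to 75.7 CPM, and the lung epithelial list to 22.9 to 28.6 and 17.9 to 20.2 CPM, in induced shMCM7 and parental cells respectively. Some members of those lists were near 0. PTPRC had at most 12 counts in a library, SFTPC at most 9 and CLDN5 at most 3. The sums were carried by CD68, LYZ, KRT7, KDR and CDH5, and the last 2 of these belong to the endothelial list. KDR was at 15.5 to 24.4 CPM in induced shMCM7 and at 12.7 to 20.7 CPM in parental cells. Whether these marker levels have a part in the differences described here was not tested.

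Calls required a change of 1.5-fold or more together with p under 0.01 and adjusted p under 0.05. By this rule 1229 genes (7.64% of 16086) were up-regulated and 1349 (8.39%) down-regulated in induced shMCM7 cells, together 16%. The groups did not overlap in 57.2% of all genes tested. The median log2 fold change of all genes was 0.00. At a change of at least 2-fold, 569 genes were higher and 620 lower, and at 8-fold or more 25 and 10. The numbers were thus similar in both directions, while the largest changes were mostly increases.

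The largest increases were in genes almost silent in parental A375 cells. SH3GL2, an endophilin that shapes membranes during endocytosis, stood at 7.24, 8.94 and 9.12 CPM in induced shMCM7 cells and at 0.326, 0.318 and 0.291 CPM in parental cells with Dox. MYOCD, a coactivator of smooth muscle genes, was at 1.59, 2.52 and 2.73 against 0.0624, 0.0944 and 0.0899 CPM. CDH5, the cadherin of endothelial cell junctions, was at 6.45, 6.62 and 5.53 against 0.298, 0.288 and 0.218 CPM. These 3 genes had fold changes of 27.1, 26.8 and 23.3, and groups that did not overlap were a condition for the genes ranked here. The 10 genes with the largest increases at a mean of at least 1 CPM also held the receptor phosphatase PTPRD (15.6-fold), the membrane protein BASP1 (13.9-fold), the cation channel TRPC4 (12.7-fold), the vasoconstrictor peptide EDN1 (9.52-fold), the transcription factor FOXP1 (9.18-fold), the Na,K-ATPase regulator FXYD7 (8.62-fold) and the netrin receptor DCC (8.49-fold). Their adjusted p lay between 2.8e-07 (SH3GL2) and 6.9e-06 (DCC) in edgeR's quasi-likelihood test.

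The largest decreases were of another kind. SLC13A5, the citrate transporter of the plasma membrane, was at 0.255, 0.395 and 0.281 CPM in induced shMCM7 cells and at 5.45, 4.87 and 3.98 CPM in parental cells, a 15.6-fold decrease. MTHFD2, a mitochondrial enzyme of folate metabolism, was at 77.1, 79.5 and 77.5 against 408, 354 and 356 CPM, 4.78-fold lower and nearly the same size of change as MCM7 itself. CRISPLD1, a secreted protein, fell 5.64-fold, from 16.4 ± 0.337 to 2.91 ± 0.178 CPM (SD, n = 3). The others among the 10 largest were the receptor EPHB6 (6.51-fold), the neuronal pentraxin NPTX2 (6.48-fold), AC136616.1 (5.11-fold), the Ras GTPase activator RASAL1 (5.03-fold), the adhesion molecule NCAM1 (4.45-fold) and LAD1, an anchoring filament protein (4.44-fold), with MCM7 in 8th place. That the groups did not overlap was part of the rule by which these 10 genes were chosen.

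Whether shMCM7 cells already differed from parental cells before induction was asked in the noDox libraries, which share no library with the first comparison. Without Dox, 189 genes were called higher (1.17% of 16093) and 77 lower (0.478%). With the replicate number as a block, which pairs these libraries, the counts were 335 and 149. Of 1189 genes called higher with Dox among the 15950 tested in both, 161 (13.5%) were also higher without Dox, which is 86.1% of the 187 called there. Of 1345 genes called lower with Dox, 63 (4.68%) were also lower without Dox, or 81.8% of the 77. With the block the shared genes were 240 (20.2% and 72.5%) and 104 (7.73% and 70.3%). The genes called higher with Dox had a median log2 fold change of 0.94 with Dox and 0.17 without it, those called lower -0.96 and -0.14. Most genes called without Dox were therefore called with Dox as well, but they made up a small share of the induced calls. MCM7 of the uninduced shMCM7 replicate 1 was at 131 CPM, as given above, and without that library the uninduced counts were 256 higher and 65 lower. The lower calls were 39 without parental noDox replicate 2, 40 without parental noDox replicate 3 and 50 without shMCM7 noDox replicate 2, and as each library was left out they ran from 39 to 66 and the higher calls from 134 to 256.

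The genes with the largest increases belonged mostly to those that were already raised. SH3GL2 was at 3.87, 6.13 and 5.82 CPM in uninduced shMCM7 cells against 0.259, 0.212 and 0.255 CPM in parental cells without Dox, a log2 fold change of 4.44 compared with 4.76 under Dox. BASP1 differed by 3.99 without Dox and 3.80 with it, TRPC4 by 3.69 and 3.67, MYOCD by 4.56 and 4.74, PTPRD by 3.64 and 3.96, FOXP1 by 2.75 and 3.20, and DCC by 2.17 and 3.09 (log2). For none of these 7 genes was the difference between contrasts called (log2 -0.19 to 0.92, adjusted p 0.073 to 0.96, edgeR quasi-likelihood test over 12 libraries). Of the 10 largest increases, 7 were called without Dox, and of the 50 largest, 37. Of the 10 largest decreases, 4 were, and of the 50 largest, 12.

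Among the named genes called lower under both conditions, the neural adhesion molecules CNTN1 and NCAM1 had the largest decreases without Dox. EPHB6, NPTX2 and AC136616.1, larger decreases than these with Dox, were at -1.23, -0.99 and -0.63 (log2) without it. NCAM1 was at 1.26, 1.63 and 1.70 CPM against 5.18, 7.23 and 7.85 CPM with Dox, and at 1.40, 1.89 and 1.84 against 4.94, 6.83 and 7.48 CPM without it. Its level in shMCM7 cells was thus nearly the same with and without Dox, and the difference between contrasts was -0.25 ± 0.26 (SE, log2). CNTN1 had log2 fold changes of -2.01 with Dox and -2.48 without, and the phosphatase subunit PPP4R3C -1.42 and -1.39.

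**Figure D2:**
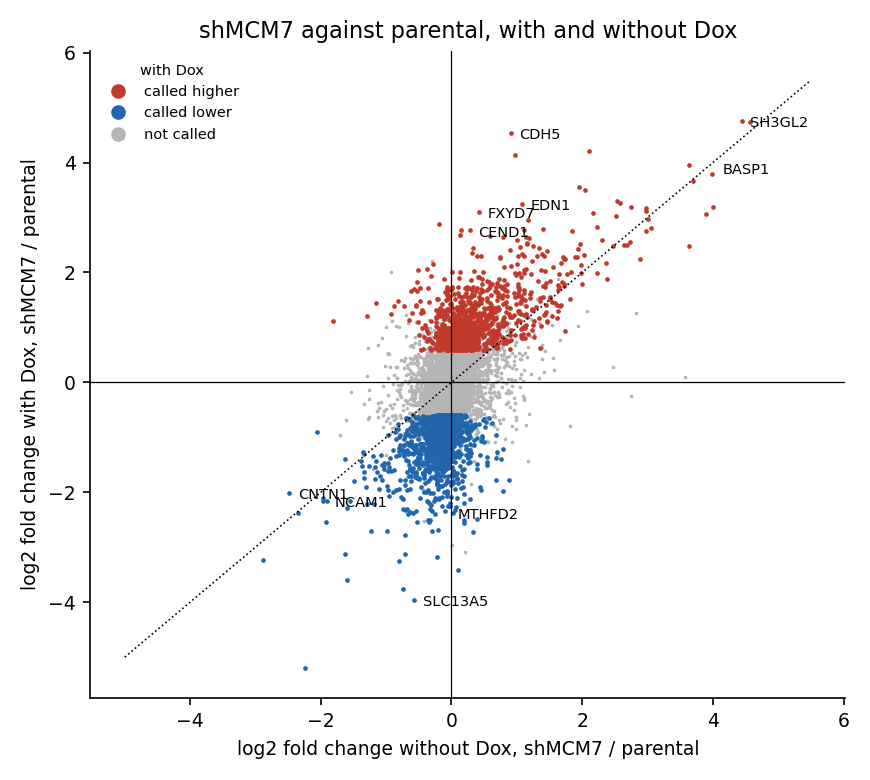
Log2 fold change of shMCM7 over parental cells with Dox (vertical) against the same without Dox (horizontal), 1 point for each gene tested in both (15950). The contrasts share no library. Colours give the call with Dox, and the dotted line marks equal changes. SH3GL2, BASP1, NCAM1 and CNTN1 lie near the line, whereas CDH5 lies well above it and SLC13A5 well below it.

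The difference between both contrasts was tested over all 12 A375 libraries. It was called positive in 713 genes (4.37% of 16334) and negative in 1007 (6.17%). CDH5 was at 0.889, 1.07 and 0.630 CPM in uninduced shMCM7 cells and 0.251, 0.656 and 0.461 CPM in their parental controls, so that its log2 fold change rose from 0.91 without Dox to 4.55 with Dox (difference 3.64 ± 0.39 SE, adjusted p = 3.1e-05). EDN1 differed by 1.08 without Dox and 3.25 with it. With the replicate block, CDH5 (0.95) and EDN1 (1.08) were called higher without Dox too, and SLC13A5 (-0.61) lower. Without Dox MTHFD2 was at 213, 380 and 318 against 323, 344 and 259 CPM, with overlapping groups, and had a log2 fold change of -0.03 against -2.26 under Dox. MCM7 itself had a difference between contrasts of -1.92 ± 0.35 (adjusted p = 0.0011). Within shMCM7 cells, Dox-treated against untreated, 897 genes were higher (5.58%) and 1037 lower (6.45%), and the log2 fold changes of MTHFD2, MCM7 and CDH5 were -1.96, -1.87 and 2.85 beside -2.26, -2.23 and 4.55 in the comparison with parental cells. The induced libraries are the same in both of these comparisons.

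The 27 lists below were assembled from textbook roles, with earlier results of these data known. They hold 856 distinct genes that were tested, of which 82 were up-regulated and 111 down-regulated. Where a list had 0 members called higher, DESeq2's Wald test called 0 as well, and the members higher at an unadjusted p under 0.05 in edgeR were 2 for DNA synthesis, 5 for DNA repair, 0 for G2/M, 3 for serine and one-carbon metabolism and 3 for ATF4. For each list, the count of called members and the median log2 fold change are to be read beside 7.64% called higher, 8.39% called lower and a median of 0.00 over all genes.

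**Figure D3:**
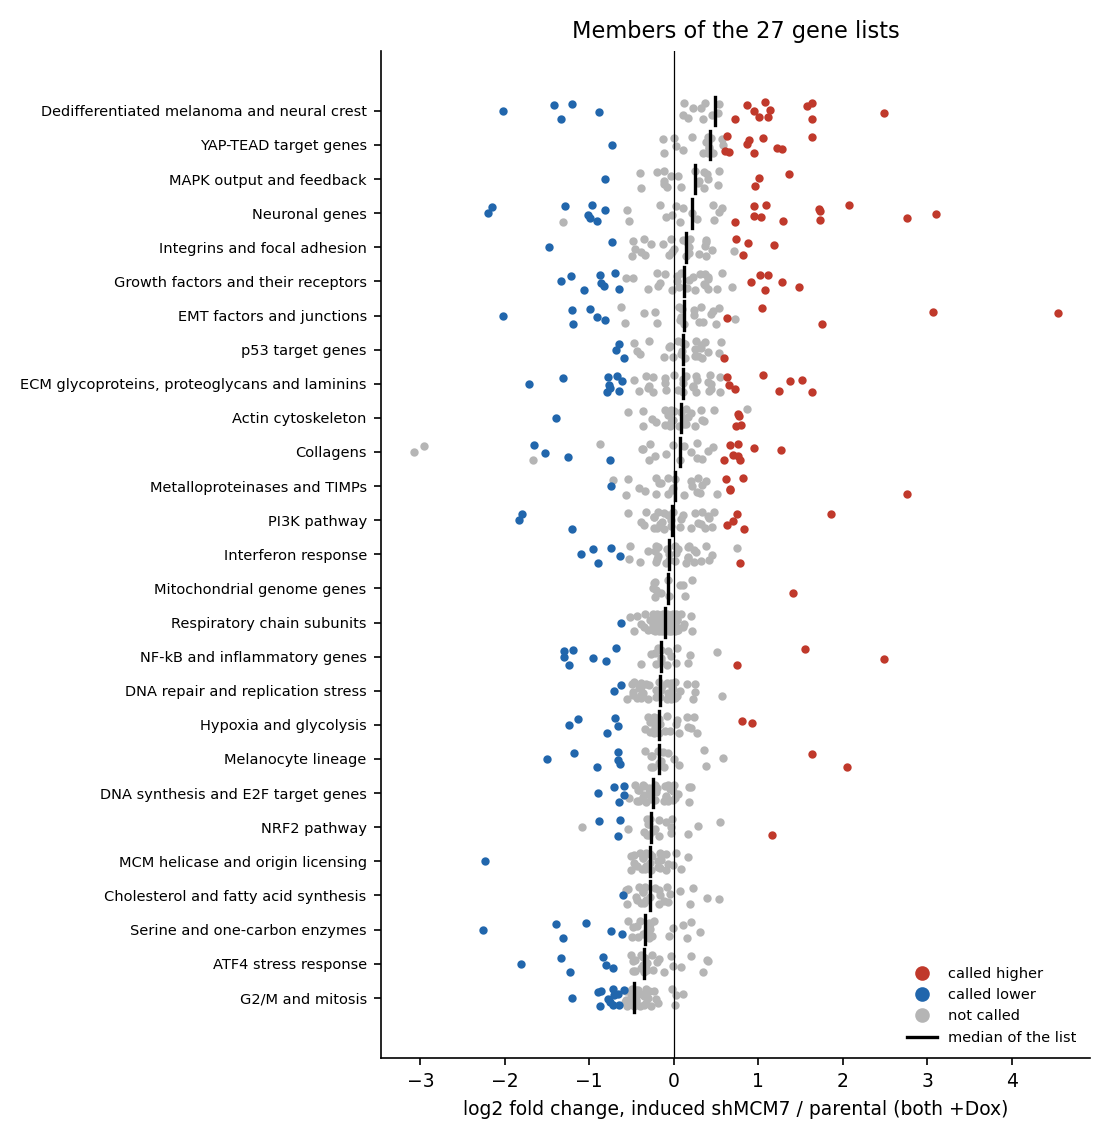
Log2 fold change (induced shMCM7 over parental, both with Dox) of each tested member of the 27 gene lists, with lists ordered by their median (black bar). Red and blue members were called higher and lower, grey ones were not called. The medians run from -0.47 in the G2/M list to 0.49 in the list of dedifferentiated melanoma genes.

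Of 30 genes of the MCM helicase and origin licensing, MCM7 was the 1 gene called. The other helicase subunits stayed near their parental levels: MCM2 was at 201 against 214 CPM, MCM3 at 143 against 160, MCM4 at 307 against 373, MCM5 at 66.9 against 70.0 and MCM6 at 60.2 against 53.5 CPM (means of 3). The list as a whole leaned downwards without reaching 1.5-fold. Its median was -0.28, 27 of 30 log2 fold changes were negative, and 19 of 30 were lower at an adjusted p under 0.05 at any fold, beside 24.8% of all genes. Among them were the origin recognition subunits ORC1 (-0.47) and ORC6 (-0.50), the loader CDC6 (-0.44) and the helicase activator CDC45 (-0.50). Of 38 genes of DNA synthesis and E2F control, 5 fell and 0 rose: the clamp loader subunits RFC3 (-0.89) and RFC5 (-0.59), the polymerase subunits POLA2 (-0.70) and POLE2 (-0.64), and thymidine kinase TK1 (-0.59). That count was 3 without parental Dox replicate 1, where POLE2 was at -0.57 and lost its call. Of 40 DNA repair genes, 2 fell, among them FANCI (-0.71), which acts in crosslink repair, and 0 rose (1 without shMCM7 Dox replicate 1).

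The mitotic genes had the lowest median of the 27 lists. Of 44 G2/M genes, 12 fell (27.3% of the list), 0 rose and 41 had a negative log2 fold change, with a list median of -0.47. KIF2C, a microtubule-depolymerizing kinesin, was at 50.9, 55.8 and 50.6 CPM in induced shMCM7 cells and at 124, 119 and 119 CPM in parental cells. CCNB1, the cyclin of mitotic entry, was at 64.0, 75.2 and 65.8 against 131, 126 and 125 CPM. FOXM1, a transcription factor of G2/M genes, was at 154, 171 and 163 against 299, 295 and 296 CPM. Induced libraries lay below all parental libraries in these 3 genes, with log2 fold changes of -1.20 ± 0.05, -0.90 ± 0.07 and -0.87 ± 0.05 (SE, adjusted p 1.7e-06 to 1.3e-05 in edgeR's quasi-likelihood test). Without Dox their log2 fold changes were 0.01, 0.02 and 0.07, and the differences between contrasts were called. The remaining 9 were the kinases PLK1 (-0.86), AURKA (-0.71), NEK2 (-0.77) and PBK (-0.59), the phosphatase CDC25C (-0.72), the kinesins CENPE (-0.76) and KIF4A (-0.72), the cohesin protector SGO1 (-0.66) and the cytokinesis scaffold ANLN (-0.65). A lower level in bulk RNA can come from fewer cells in G2/M or from less RNA per cell, which cannot be told apart here.

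Of 29 p53 target genes, 3 fell (10.3%) and TRIAP1 (0.59) rose (3.45%), beside 8.39% and 7.64% of all genes. The list median was 0.11. At an adjusted p under 0.05 at any fold, 12 members were higher and 7 lower, beside 23.2% and 24.8% of all genes. CDKN1A, the inhibitor of cyclin-dependent kinases known as p21, was at 747, 727 and 737 CPM against 1137, 1235 and 1161 CPM, a log2 fold change of -0.68 ± 0.05. PHLDA3, a repressor of AKT, had -0.65, and TP53INP1 -0.59. Without shMCM7 Dox replicate 1, 3 members rose. The calls of TP53INP1 and TRIAP1 lie next to the fold limit. TP53INP1 lost its call in 9 of 13 alternative fits. They included 5 that changed the scaling, filter, dispersion or test (-0.58 to -0.57), and those without shMCM7 Dox replicate 1 (-0.56), shMCM7 Dox replicate 3 (-0.54) or parental Dox replicate 3 (-0.55), and TRIAP1 without shMCM7 Dox replicate 2 (0.57), parental Dox replicate 2 (0.58) or parental Dox replicate 3 (0.58).

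TTTGAA, the core of the cell cycle homology region found at many G2/M genes, was searched on both strands in RefSeq promoters (GRCh38.p14, 250 bases before to 50 after the start). It was present in 15.4% of 27305 promoters and in 26 of 36 promoters of the G2/M list that the table holds (72.2%). Of the 12 genes that fell, 9 had a promoter in the table, and 3 of those held the motif, a smaller share than in the whole list. They are shown in 30-base windows in the direction of the gene with the match in capitals, for ANLN as its reverse complement TTCAAA. ANLN holds 2 matches, and the other one, in the direction of the gene, follows directly in lower case.
PLK1 (chr16:23678848-23678877, plus strand): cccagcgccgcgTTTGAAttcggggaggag
KIF4A (chrX:70290058-70290087, plus strand): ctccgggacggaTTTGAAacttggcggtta
ANLN (chr7:36389824-36389853, plus strand): tcggcgctgaaaTTCAAAtttgaacggctg
The matches in capitals begin 29, 34 and 26 bases before the annotated start. They describe the sequences and were not tested for function.

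The PI3K pathway passes signals from receptors through lipid kinases to AKT, and was examined because its genes are central to the study. Of 38 members, 5 rose and 3 fell, with a median of -0.02 that ran from -0.02 to 0.02 as each library was left out. PIK3R2 (chr19:18153118-18170540), a regulatory subunit of class IA PI3K, was at 33.5, 28.5 and 32.6 CPM in induced shMCM7 cells and at 106, 116 and 116 CPM in parental cells. PIK3R3 (chr1:46040140-46133036), another regulatory subunit, was at 7.24, 8.02 and 8.20 against 27, 26.4 and 28 CPM. Every induced library was below every parental one. PIK3R2 fell 3.57-fold (log2 -1.84 ± 0.07 SE, adjusted p = 1.1e-06) and PIK3R3 3.48-fold (log2 -1.80 ± 0.07 SE, adjusted p = 9.5e-07, edgeR quasi-likelihood test). Without Dox both were lower in shMCM7 replicate 1, at 63.7 and 14.5 CPM, the library with 131 CPM of MCM7, than in replicates 2 and 3, at 105 and 110 CPM for PIK3R2 and 27.1 and 29.3 CPM for PIK3R3. Leaving out that library moved the uninduced log2 fold change of PIK3R2 from -0.23 to -0.01 and that of PIK3R3 from -0.36 to -0.10. The catalytic subunit PIK3CD was at 31.6, 30.4 and 29.3 against 39.6, 40.7 and 35.6 CPM, without overlap, but its log2 fold change of -0.35 ± 0.07 did not reach the fold limit.

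The members that rose included the regulatory subunit PIK3R6 (1.86), the kinase GSK3B (0.83) and the insulin receptor substrates IRS1 (0.74) and IRS2 (0.70). PIK3R6 was scarce, at 0.874 ± 0.183 against 0.241 ± 0.0263 CPM (SD, n = 3). GSK3B was at 164, 176 and 182 against 98.9, 95.7 and 99.6 CPM, with no overlap. IRS2 rested on shMCM7 Dox replicate 1, which had 334 CPM beside 232 and 210 CPM in the others, and without it the log2 fold change was 0.47 and the call was lost. Of the list, 13.2% were called higher and 7.9% lower, beside 7.64% and 8.39% of all genes. Calls in both directions were thus not particular to this pathway.

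Metalloproteinases cut matrix proteins, and TIMPs inhibit them. Of 29 members, 5 rose and 1 fell, with a median of 0.02 that was -0.01 without parental Dox replicate 3 and 0.12 without shMCM7 Dox replicate 2. MMP3, stromelysin 1, was at 4.57, 6.72 and 8.04 CPM in induced shMCM7 cells and at 0.895, 0.820 and 1.11 CPM in parental cells, 6.80-fold higher. TIMP2 was at 269, 293 and 300 against 166, 162 and 161 CPM, 1.76-fold higher. MMP3 was already higher without Dox (log2 1.11) and rose further with it (difference 1.65 ± 0.32 SE, adjusted p = 0.0017), whereas TIMP2 was not called without Dox (0.12). RECK, a membrane-anchored inhibitor (0.67), and the sheddases ADAM9 (0.62) and ADAM12 (0.67) rose too. ADAMTS1 fell (-0.74), and a 2nd member joined it when shMCM7 Dox replicate 1 was left out. MMP9, MMP10 and MMP24 were below 1 CPM in every library, their groups overlapped, and their log2 fold changes were -0.15 ± 0.30, -0.72 ± 0.33 and -0.18 ± 0.22 (SE).

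**Figure D4:**
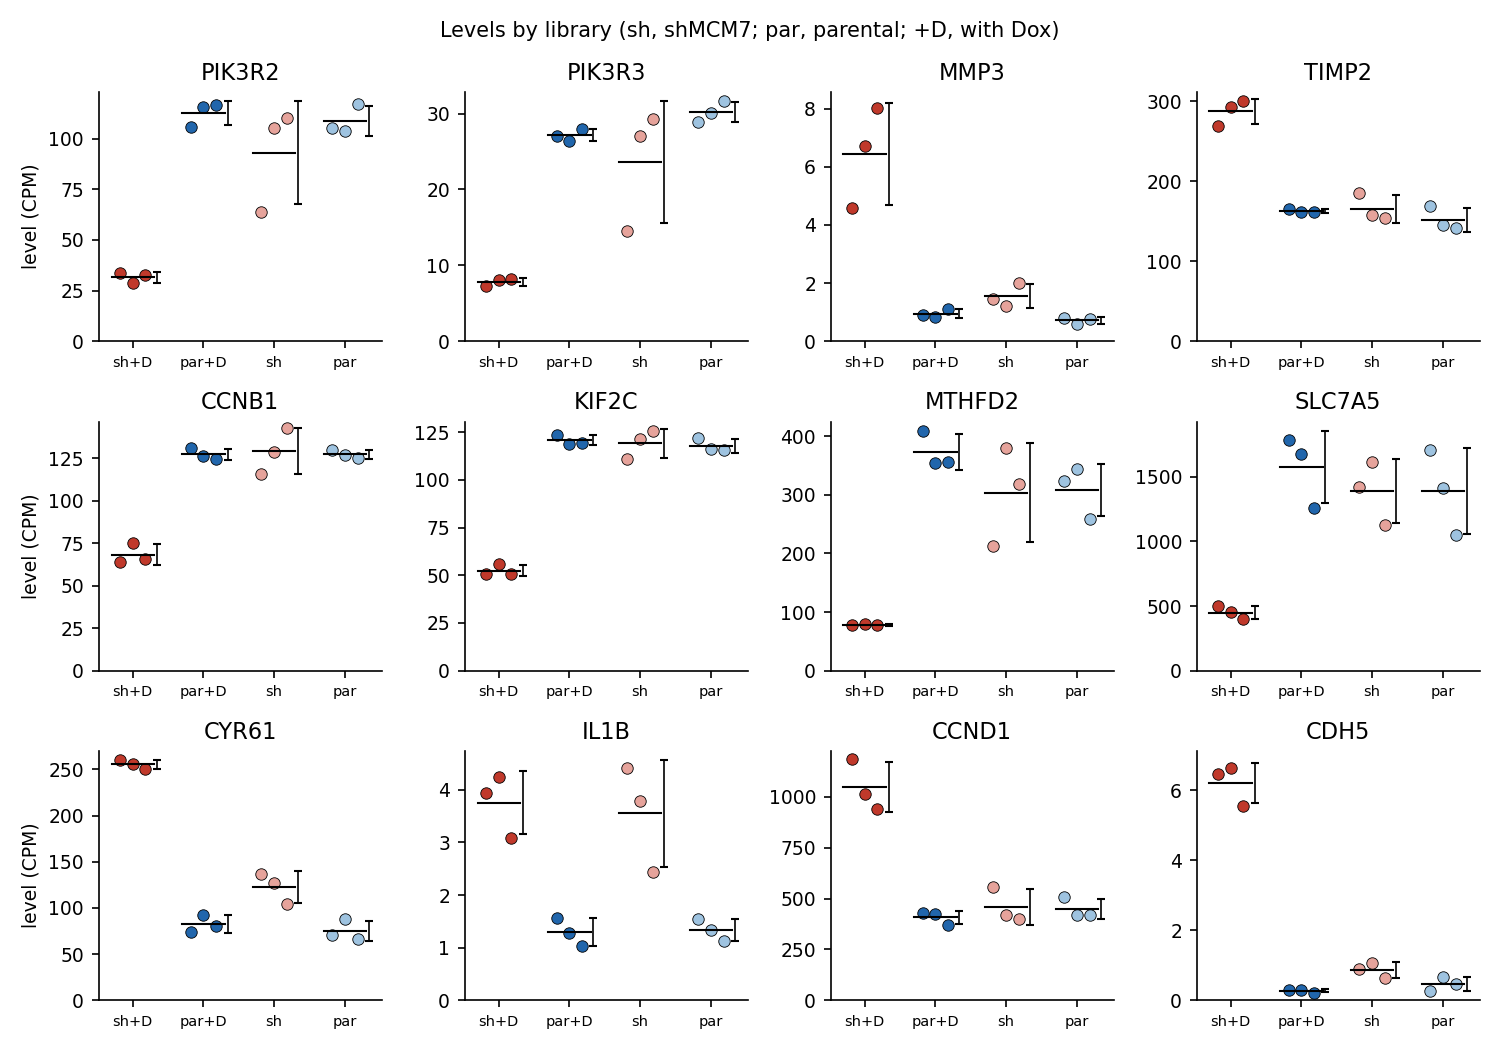
Level (CPM) of 12 genes in each of the 12 A375 libraries. Points are libraries, bars are means and whiskers the SD of 3 libraries; sh is shMCM7, par is parental and +D is with Dox. In all 12 genes the induced shMCM7 libraries are separate from the parental libraries with Dox, and IL1B is as high without Dox as with it in shMCM7 cells.

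Genes of the matrix moved in both directions. Of 31 collagens, 8 rose and 4 fell. COL13A1, a transmembrane collagen, was at 71.0, 64.0 and 72.3 against 25.9, 27.3 and 32.7 CPM, and the basement membrane chains COL4A5 (0.76) and COL4A6 (0.79) and the fibril-associated COL12A1 (0.76) rose as well. COL9A2 (-0.76) fell. Leaving out parental Dox replicate 1 gave 6 higher and 7 lower. COL1A2 and COL3A1, with log2 fold changes of -3.08 ± 1.02 and -2.96 ± 1.17 (SE), were not called, and their size came from the high values of parental Dox replicate 3 given above. Of 45 glycoproteins, proteoglycans and laminins, 8 rose and 9 fell. The laminin chains LAMA1 (1.52) and LAMA5 (1.38) and the matricellular proteins CYR61 (1.63), THBS1 (1.25) and CTGF (1.06) rose, and the heparan sulfate proteoglycans GPC4 (-1.71), SDC1 (-0.67) and SDC4 (-0.64) fell. Without Dox, 5 members of this list were already called higher and 1 lower. Among them LAMA1 differed by 1.81, LAMA5 by 0.71, CYR61 by 0.70 and GPC4 by -1.09 (log2).

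Adhesion receptors and cell junctions also had calls in both directions. Of 31 integrin and focal adhesion genes, 4 rose (12.9%) and 2 fell (6.45%), beside 7.64% and 8.39% of all genes, with a median of 0.15. Those that rose were the collagen-binding integrins ITGA1 (0.87) and ITGA11 (0.81), the focal adhesion kinase PTK2 (0.74) and the actin linker TNS1 (1.19). ITGB8 (-1.48), which activates TGF-beta, and the adaptor BCAR1 (-0.73) fell. ITGA1 was at 331, 371 and 324 against 181, 183 and 195 CPM and ITGB8 at 39.8, 40.9 and 35.7 against 116, 109 and 98.6 CPM, both with no overlap. Of 31 genes of epithelial-mesenchymal transition and junctions, 5 rose (16.1%) and 6 fell (19.4%), with a median of 0.12. All 6 that fell encode parts of epithelial junctions or their desmosomal plaque: LSR (-2.02), CLDN4 (-1.20), F11R (-1.19), DSP (-0.99), CDH3 (-0.91) and JUP (-0.82). Among those that rose, the plaque protein PKP2 (1.76) and CDH6 (3.07) were higher without Dox too (1.72 and 3.90), and CDH5 was described above. EPCAM (1.04) was at 0.801 against 0.387 CPM and CDH11 (0.63) at 1.32 against 0.848 CPM (means of 3). CDH11 lost its call when any library other than parental Dox replicate 3 was left out (0.52 to 0.64). Of 33 actin genes, TPM1 (0.74), MARCKS (0.76), CNN1 (0.77) and TAGLN (0.79) rose and ACTG2 (-1.40) fell, and without shMCM7 Dox replicate 3 TAGLN lost its call (0.57) and 0 fell.

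YAP and TEAD are the transcription regulators of the Hippo pathway. The list of their target genes, which also holds the regulators YAP1, WWTR1, TEAD1 and TEAD4 themselves, had a median of 0.43. Of its 28 members 10 rose (35.7%), while WWTR1, which encodes the YAP homologue TAZ, fell (-0.73). CYR61 was at 260, 256 and 250 CPM against 73.3, 92.4 and 80.8 CPM, 3.10-fold higher. It was higher without Dox as well (0.70), and the difference between contrasts was 0.93 ± 0.16 (SE, adjusted p = 0.00073). FJX1 (1.22), TGFB2 (1.28), CTGF (1.06, called without Dox with the block at 0.61), AXL (0.95), ANKRD1 (0.89), NT5E (0.87), WWC1 (0.66), CRIM1 (0.63) and TEAD1 (0.61) were the others that rose. The list had a median of 0.24 in the uninduced comparison, so part of its shift was already there without Dox.

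Melanoma cells range from a pigmented state governed by MITF to a dedifferentiated state with neural crest genes. Of 24 genes of the melanocyte lineage, 2 rose and 6 fell, with a median of -0.18. PMEL, a melanosome protein, was at 1.91, 2.56 and 1.99 against 3.43, 4.80 and 3.87 CPM, and BCL2A1 (-1.50), DCT (-1.18), TBX2 (-0.65) and S100A1 (-0.64) fell too. DCT was scarce, at 0.194 CPM in induced shMCM7 and 0.431 CPM in parental cells (means of 3). TYRP1 (1.64) and KIT (2.05) rose from under 1 CPM. MITF itself was at 37.3, 45.1 and 44.5 against 32.1, 34.3 and 31.1 CPM and was not called (0.38 ± 0.08), nor was SOX10 (-0.27 ± 0.08). TBX2 lost its call without shMCM7 Dox replicate 2 (-0.55) or parental Dox replicate 3 (-0.56). Counts of the list were 3 higher and 4 lower without shMCM7 Dox replicate 1 and 1 higher without shMCM7 Dox replicate 3.

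Of 26 genes of the dedifferentiated and neural crest state, 11 rose (42.3%) and 5 fell, with a median of 0.49. SOX9, a neural crest transcription factor, was at 5.38, 4.75 and 4.80 against 1.6, 1.54 and 1.66 CPM. It was raised without Dox too (1.22), as were the growth factor NRG1 (1.12 with, 1.26 without Dox) and IL6 (2.49 and 2.48). The receptor tyrosine kinase AXL, at 570 ± 64.1 against 295 ± 11.6 CPM (SD, n = 3), the collagen crosslinker LOXL2 (1.01), PDGFRB (1.08) and JUN (1.14) rose without being called in the absence of Dox. In the opposite direction, the neural crest factors SOX2 (-1.41) and FOXD3 (-1.20), the receptors ROR2 (-2.02) and GFRA2 (-1.34) and the filament protein NES (-0.88) fell, so the list did not move in 1 direction. FOXD3 was called lower without Dox as well (-0.76), and its difference between contrasts was not called (-0.45 ± 0.25 SE). Without Dox the list had a median of 0.18, with 5 members called higher and 1 lower.

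A375 cells carry an activated BRAF kinase, and 23 genes of MAPK output and feedback had a median of 0.25, which was 0.03 without shMCM7 Dox replicate 1. CCND1, the cyclin of G1 progression, was at 1185, 1016 and 942 CPM in induced shMCM7 cells against 427, 424 and 371 CPM, a log2 fold change of 1.36 ± 0.09 with no overlap. Without Dox it differed by 0.03. MYC (0.97) and the phosphatase DUSP5 (1.01) rose, and IER3 (-0.81) fell.

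Enzymes of serine and one-carbon metabolism, which supply folate-bound carbon for nucleotide synthesis, fell in 6 of 26 cases and rose in 0. The list median was -0.34. After MTHFD2, the serine synthesis enzyme PSAT1 was at 148, 144 and 157 against 417, 373 and 387 CPM, and GLDC of the glycine cleavage system at 5.52, 5.64 and 4.97 against 13.4, 13.2 and 13.5 CPM. The groups were far apart in both, with log2 fold changes of -1.39 ± 0.06 and -1.32 ± 0.07 (SE). CBS (-1.04) and CTH (-0.74), which make cysteine from homocysteine, and the mitochondrial folate enzyme MTHFD1L (-0.62) completed the group. Without Dox the list median was 0.02, and MTHFD2, PSAT1 and GLDC had log2 fold changes of -0.03, 0.00 and -0.32.

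Genes of the amino acid stress response run by ATF4 were down-regulated in 6 of 31 cases and up-regulated in 0, with a median of -0.35. SLC7A5, the light chain of the large neutral amino acid transporter, was at 501, 451 and 396 CPM against 1787, 1680.1 and 1256 CPM. Its heavy chain SLC3A2 was at 244, 209 and 205 against 567, 530 and 447 CPM. Both chains were lower in every induced library than in any parental one, with log2 fold changes of -1.81 ± 0.13 and -1.23 ± 0.10 (SE). GDF15, a stress-induced cytokine (-1.34), CHAC1, which degrades glutathione (-0.84), the transcription factor ATF5 (-0.80) and asparagine synthetase ASNS (-0.72) fell as well. None of the 6 was called without Dox, and for all 6 the difference between contrasts was called negative.

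TGATGNAA, the element through which C/EBP and ATF dimers act at such genes, was present in 3.67% of the 27305 RefSeq promoters on either strand. It was found in 7 of 45 promoters of both metabolic lists together (15.6%) and in 4 of the 12 genes that fell. The windows are shown in the direction of the gene with the match in capitals, for CHAC1 and SLC3A2 as its reverse complement.
MTHFD1L (chr6:150866346-150866375, plus strand): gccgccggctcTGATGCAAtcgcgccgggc
CHAC1 (chr15:40953251-40953280, plus strand): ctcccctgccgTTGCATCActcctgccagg
ASNS (chr7:97872458-97872487, minus strand): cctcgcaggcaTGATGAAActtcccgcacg
SLC3A2 (chr11:62881719-62881748, plus strand): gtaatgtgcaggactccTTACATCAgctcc
No match in a window says only that these letters are not there, and MTHFD2 and PSAT1, with the largest decreases of enzymes, had none.

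Other metabolic lists shifted less. The 27 genes of cholesterol and fatty acid synthesis had a median of -0.28, but only the regulator SREBF1 was called (-0.60), and it lost its call without shMCM7 Dox replicate 2 (-0.48), parental Dox replicate 3 (-0.46) or the filter on low counts (-0.58), while 3 members were lower without shMCM7 Dox replicate 3 and 1 was higher without parental Dox replicate 3. Of 71 nuclear genes of the respiratory chain, COX6A1 was the 1 gene called (-0.63), and the median was -0.10. Leaving out shMCM7 Dox replicate 1 gave 2. Of 13 genes of the mitochondrial genome, MT-ND6 rose, at 385, 360 and 314 against 177, 106 and 115 CPM (1.41 ± 0.17 SE). It is the protein-coding gene on the other strand of that genome, and whether the counts used the strand is not given in the sources used here. With the replicate block MT-ND6 was called lower without Dox (-0.59). Of 31 genes of hypoxia and glycolysis, 2 rose, the peptide hormone ADM (0.93) and the lactate exporter SLC16A3 (0.81), and 5 fell, CA12 (-1.24), CA9 (-1.13), EGLN3 (-0.79), ALDOC (-0.69) and PFKFB4 (-0.66). Of 24 genes of the NRF2 pathway, AKR1B10 rose (1.16), and OSGIN1 (-0.89), KEAP1 (-0.65) and AKR1C2 (-0.63) fell. Without parental Dox replicate 3, 5 of them fell, and without shMCM7 Dox replicate 3, which took the call from AKR1C2 (-0.56), 2 fell and 2 rose.

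Most of the called interferon and inflammatory genes were lower. Of 37 interferon genes, 5 fell and 1 rose: the ubiquitin ligase HERC5 (-1.10) was at 3.62, 3.87 and 4.29 against 9.01, 7.73 and 8.45 CPM, and XAF1 (-0.96), CMPK2 (-0.90), OAS1 (-0.74) and OAS3 (-0.63) fell with it, whereas IFI44L rose (0.79). These were 13.5% and 2.7% of the list, beside 8.39% and 7.64% of all genes. The list median was -0.06, with 18 positive and 19 negative log2 fold changes, so the interferon list as a whole leaned in neither direction. At an adjusted p under 0.05 at any fold, 11 members were lower and 8 higher, beside 24.8% and 23.2% of all genes. A 2nd member rose when shMCM7 Dox replicate 1 was left out. Of 26 genes of NF-kB and inflammation, 7 fell (26.9%) and 3 rose (11.5%). The median was -0.15, and it was -0.28 without shMCM7 Dox replicate 1 and -0.02 without shMCM7 Dox replicate 3. PTGS2 (-1.30), TNFRSF9 (-1.30), CXCL3 (-1.24), CSF2 (-1.20), TRAF1 (-0.96), IL1A (-0.80) and CXCL8 (-0.69) fell. IL1B rose (1.55), as did IL6 and CCL2 (0.75), and IL1B was as much higher without Dox (1.40). CSF2 lost its call without parental Dox replicate 1 (-1.06) or parental Dox replicate 2 (-1.13).

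Neuronal genes changed in both directions, with 12 of 35 higher (34.3%) and 8 lower (22.9%). FXYD7 was at 6.37, 4.93 and 6.17 against 0.562, 0.700 and 0.745 CPM, and CEND1, which acts in neuronal cell cycle exit, at 32.2, 20.5 and 26.8 against 3.57, 4.37 and 3.74 CPM. All induced libraries were above all parental ones. SCG5, a chaperone of secretory granules (1.74), PIANP (1.72) and MAP2 (1.73) also rose, while UNC13A (-1.29) and GAP43 (-1.01), of synaptic vesicles and growth cones, fell together with NCAM1. Of 40 growth factors and receptors, 6 rose and 8 fell. PDGFB (1.48), TGFB2 (1.28), NRG1 (1.12), PDGFRB (1.08), TGFBR2 (1.03) and VEGFC (0.91) rose, and GDF15, IGF2 (-1.22), FGFR2 (-1.06), FGF2 (-0.87), BMP2 (-0.86), TGFB1 (-0.82), IGFBP5 (-0.70) and ERBB2 (-0.64) fell. The TGF-beta ligands thus moved apart, TGFB2 from 1.5 to 3.67 CPM and TGFB1 from 101 to 57.0 CPM (means of 3).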

How the data were processed

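Total RNA was sequenced in 24 libraries, and the 12 of A375 were used here. The labels name bcl2fastq 2.19, Trimmomatic, STAR 2.7.1, featureCounts and GRCh38.p10, and the authors deposited read counts per gene, whole numbers without normalization. The strand setting is not given in the sources used here. Names and positions came from GENCODE 29 (GRCh38), which held 21349 of 21386 identifiers. Counts were tested with edgeR 4.0.16 (TMM, filterByExpr, quasi-likelihood, prior count 0.125) in R 4.3.3 and Python 3.11.15, without covariates. A gene was called at a fold of at least 1.5, p under 0.01 and an adjusted p under 0.05. Depth was 146656792 to 283721575 counts for the 6 libraries compared, and counting error is small beside the spread of replicates. On simulated counts, 200 of 200 genes changed 2-fold were recovered among 16086 genes, with 3 unchanged genes called, and 191 of 200 for the difference between contrasts among 16334. The changed genes had a mean of at least 1 CPM and were fewer than those called in the data. Recovery of scarcer genes or of changes near 1.5-fold was not tested. Replicate numbers pair the noDox libraries (correlations of deviations 0.295, 0.216 and 0.315). The shMCM7 libraries with and without Dox also matched best by their own number (0.236, 0.0725 and 0.211). Named genes were MCM7, genes the study names, and the 10 largest changes in each direction (mean of at least 1 CPM, groups not overlapping). The 3 largest called list members, the 3 largest in the difference and uninduced comparisons, and markers were named too. Further called list members were named after their values were seen. The members, lists and rule were chosen with earlier results of these data known. The results of some genes of the rule and lists are not reported here.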

Additional observations from a re-analysis of the deposited data

Results flagged for a closer look

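The difference between shMCM7 and parental cells was not the same with and without Dox. Tested over 12 libraries with edgeR's quasi-likelihood test and Benjamini-Hochberg adjustment, it was more positive with Dox in 713 genes and more negative in 1007. The named genes with the largest such differences (log2) were CDH5 (3.64), FXYD7 (2.68) and CEND1 (2.48) in the positive and SLC13A5 (-3.39), MTHFD2 (-2.23) and CRISPLD1 (-2.14) in the negative direction, and their adjusted p lay between 1.0e-05 and 0.0003. All 3 induced libraries lay above all 9 others for CDH5, FXYD7 and CEND1 and below all 9 others for the remaining 3. In uninduced shMCM7 replicate 1, which had 131 CPM of MCM7, CEND1 was at 7.58 CPM, SLC13A5 at 2.21, MTHFD2 at 213 and CRISPLD1 at 6.57 CPM, each between the induced libraries and uninduced replicates 2 and 3, as was FXYD7 at 1.30 CPM. CDH5, at 0.889 CPM, lay between replicate 2 (1.07) and replicate 3 (0.630 CPM) instead. Without that library, 822 genes had a more positive and 1091 a more negative difference.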

How the results depend on the processing

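Size factors of DESeq2, its Wald test, no filter, a minimum of 10 counts in every library, a dispersion shared by 12 libraries and the replicate block kept the counts of the induced comparison within 1.5 times, and MCM7 stayed called in all fits. The replicate numbers did not pair the libraries of the induced comparison (correlations of deviations -0.01, -0.09 and 0.25, with the own number best in 1 of 3), and the block called 1220 genes higher and 1346 lower, 2493 of them the same genes with the same direction as among the 2578. Without Dox the block gave 335 higher and 149 lower. glmTreat, which tests against 1.5-fold itself, called 596 higher and 678 lower with Dox, 48 and 55 of the listed genes, and 72 higher and 14 lower without Dox, as its stricter null implies. When each library was left out, induced calls were 1139 to 1258 higher and 1267 to 1384 lower, listed genes 81 to 87 and 108 to 114, MCM7 -2.24 to -2.21 (log2), uninduced calls 134 to 256 and 39 to 66, the difference between contrasts 629 to 822 and 862 to 1091, and shMCM7 cells with against without Dox 794 to 965 and 890 to 1146 (897 and 1037 with all). The uninduced lower calls were 39 without parental noDox replicate 2, 40 without parental noDox replicate 3 and 50 without shMCM7 noDox replicate 2, and the cause was not tested. The difference between contrasts and the comparison of shMCM7 cells stayed within 1.5 times in all fits run. Of the named genes, glmTreat took the call from 40, and the other fits of all libraries from at most 2 each. TP53INP1 lost its call in 5 of those fits and kept it with the block, and CDH11 and SREBF1 lost theirs in 1 each.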
